A study of Homo sapiens with 3 samples.

Results

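The genes described here carry glucose from uptake to lactate. They are SLC2A1, the glucose transporter also called GLUT1, and 9 enzymes, HK2, GPI, PFKP, ALDOA, TPI1, GAPDH, PGK1, ENO1 and LDHA. Members were the rows of the deposited table whose gene symbol equals one of these names, and all 10 names were found among the 51136 rows. The cells were PANC-1, an epithelial line established from a human pancreatic tumour of the duct. It holds 3 libraries, 1 for each of the groups control, Rg3 and TAM. The control cells received no agent, the Rg3 cells received the ginseng saponin ginsenoside Rg3 at 200 µM for 24 h, and the TAM cells received tamoxifen, a modulator of the estrogen receptor, at 50 µM for 24 h. The labels name no vehicle and no culture time for the control cells, nor do they say whether a library pooled several cultures. All groups were the same line grown in the same medium with serum, so the results describe 1 line.

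Glycolysis splits glucose into pyruvate in the cytosol and yields ATP without oxygen, and many tumour cells run it at a high rate and release the carbon as lactate. SLC2A1 lets glucose in, HK2 traps it as a phosphate, and PFKP catalyses the committed step. The enzymes from GAPDH on recover ATP and NADH, and LDHA turns pyruvate into lactate while restoring NAD+. HIF-1, the oxygen-regulated transcription factor, and MYC are known to drive transcription of most of these genes, and both bind DNA at sites that hold the letters ACGTG. Several members, GAPDH and TPI1 among them, have processed pseudogenes, which are copies of the mRNA put back into the genome, and short reads from the gene and from such a copy are hard to tell apart.

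TPI1 shows how close such a copy can be. Its pseudogene TPI1P1 holds the whole coding stretch of 750 bases, matches TPI1 at 98.1% of them, and shares runs of up to 161 identical bases with it. The first 60 coding bases are shown because a read lying wholly within them can be placed only by the bases in capitals, which mark the 2 positions where gene and copy differ. They stand 5′ to 3′ on the sense strand of each GENCODE 29 transcript, at positions 37 to 96 of TPI1 and 1 to 60 of TPI1P1.
TPI1: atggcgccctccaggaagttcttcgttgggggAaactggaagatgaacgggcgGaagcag
TPI1P1: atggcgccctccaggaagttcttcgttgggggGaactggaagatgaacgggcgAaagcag

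The promoters of LDHA and PGK1 are shown because these members stood apart from the other 8 with Rg3. Each window runs from 250 bases before to 50 bases after the RefSeq gene start on the plus strand of GRCh38.p14, at chr11:18394313-18394612 for LDHA and chrX:78103998-78104297 for PGK1. Capitals mark ACGTG on either strand, written CACGT where it lies on the minus strand and CACGTG where both overlap, and an overlapping pair was counted once.
LDHA: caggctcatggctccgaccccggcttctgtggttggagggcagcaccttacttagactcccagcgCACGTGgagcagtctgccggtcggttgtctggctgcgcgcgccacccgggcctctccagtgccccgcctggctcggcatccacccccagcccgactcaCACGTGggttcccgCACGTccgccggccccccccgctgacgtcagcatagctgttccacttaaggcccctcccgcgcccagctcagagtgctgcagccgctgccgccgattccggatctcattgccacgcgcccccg
PGK1: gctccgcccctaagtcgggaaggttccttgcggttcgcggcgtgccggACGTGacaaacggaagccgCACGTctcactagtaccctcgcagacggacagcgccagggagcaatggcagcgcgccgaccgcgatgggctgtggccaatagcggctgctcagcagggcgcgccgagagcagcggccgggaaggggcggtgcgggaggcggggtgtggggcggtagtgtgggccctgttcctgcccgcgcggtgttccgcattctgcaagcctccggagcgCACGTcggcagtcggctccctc
LDHA and PGK1 each held 3 such matches. Of the 9 members whose window lay within 500 bases of the start of the transcript used here, 5 held at least 1 match, and these were HK2 with 2, GPI with 1, ALDOA with 1, PGK1 and LDHA. SLC2A1, PFKP, TPI1 and ENO1 held none, which says only that these letters are not in these windows. The letters GCGTG, the other form that HIF-1 is known to bind, were found 2 times in ENO1 and 1 time each in SLC2A1, HK2, PGK1 and LDHA, or in 5 of 9 members against 36.5% of all promoters, and PFKP and TPI1 held neither form. Over all 35116 RefSeq promoters of the same length, 21.4% held a match to ACGTG and 3.4% held more than 1. These promoters were not matched to the members for GC content. In the 9 member windows it ran from 55.7% for ALDOA to 74.3% for HK2. A match is a description of the letters and no evidence that a factor bound there.

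The 3 libraries held 11300766, 12861693 and 11321442 counted reads for control, Rg3 and TAM. The line was checked against markers before the results. Keratins 7, 8, 18 and 19 and vimentin, the 5 markers taken for PANC-1, had between 93 and 55276 counts in every library. All 5 were lower with Rg3 by the fold limit used below, with a median log2 fold change of -1.30, and 3 of them remained lower once the trend described below was removed. With TAM 1 was higher, KRT7 at 0.68, and 1 lower, KRT19 at -1.67. The part of this shift in the values of the glycolysis genes was not tested. In contrast, 9 of 10 markers of blood, vessel, liver, acinar and islet cells had at most 1 count and 7 were at 0 throughout. The exception was CD68, a lysosomal protein of macrophages that other cells also make, with 615, 426 and 1100 counts. Between libraries, fold changes followed base composition and, more weakly, transcript length. Across the 12427 genes with at least 50 counts and a known transcript, the Spearman correlation of the Rg3 fold change with GC content was -0.80, and for TAM it was 0.50 across 11980 genes. With transcript length the correlation was 0.20 for Rg3 and -0.44 for TAM. For that reason each member is given below both as the scaled fold change and after removal of the trend that genes of the same GC content and length followed.

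Together the 10 genes made up 2.24% of all counted reads in control (95% interval 2.23 to 2.24), 1.86% in Rg3 (1.85 to 1.86) and 2.81% in TAM (2.80 to 2.82). These intervals are exact Clopper-Pearson intervals and cover counting error only, since PCR copies were not marked and no culture was repeated. Bulk RNA of this kind cannot separate less RNA per cell from fewer cells that express a gene. As reads per kb of transcript and per megaread of the library (RPKM), ENO1 at 3620, GAPDH at 3600, ALDOA at 1870 and TPI1 at 1060 were the most abundant members in control. LDHA at 454, GPI at 452, PFKP at 420 and PGK1 at 312 formed a middle tier, and the entry steps lay far below it, with SLC2A1 at 39.9 and HK2 at 7.19. The spread from HK2 to the most abundant member was 503-fold in control, 430-fold in Rg3 and 632-fold in TAM. Neighbours in this order were close in places, and LDHA and GPI differed in control by less than the choice of transcript can move a level per length.

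The order of the tiers was shared by the 3 libraries, but positions inside them were not. In Rg3, GAPDH at 2940 stood above ENO1 at 2580, and PGK1 at 350 passed GPI at 316 and PFKP at 298, all in RPKM. In TAM, the order was that of control, and ENO1 reached 4380, GAPDH 4250 and ALDOA 3060. Shares of the reads of the 10 genes need no scaling between libraries, but they still carry the trend on GC content and length. LDHA took 4.91% of them in control (4.82 to 4.99), 7.85% in Rg3 (7.74 to 7.96) and 4.79% in TAM (4.72 to 4.87). PGK1 took 6.81%, 9.22% and 6.64% in the same order. ENO1 went the other way, with 28.8% in control, 24.7% in Rg3 and 27.7% in TAM. ALDOA had its largest share in TAM, with 13.4%, 14.3% and 17.4%. LDHA and PGK1 are the members of lowest GC content. With the trend removed, the log2 fold changes with Rg3 were -0.19 for LDHA, -0.49 for PGK1 and -0.35 for ENO1.

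**Figure D1:**
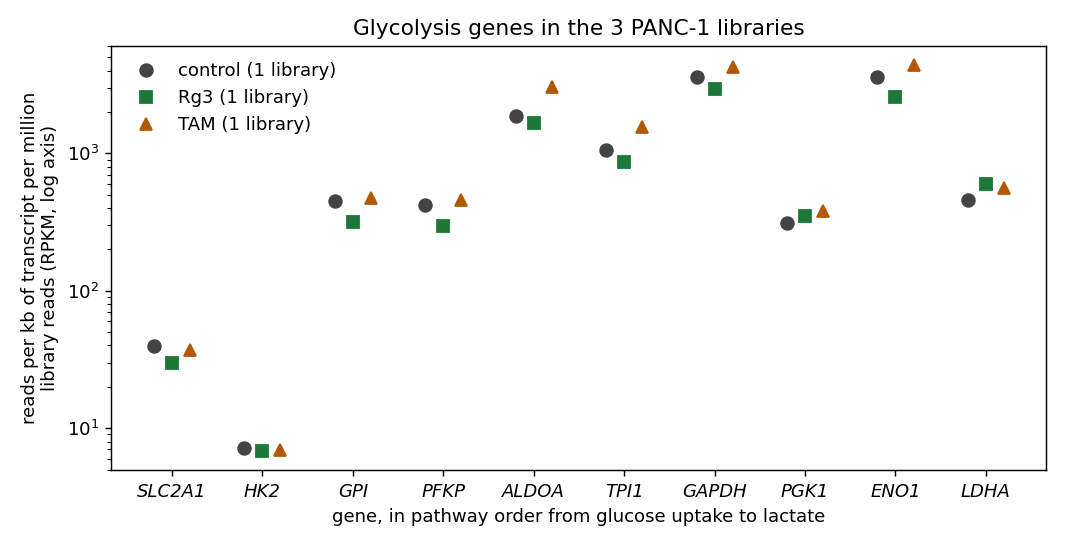
Level of each gene in RPKM (log axis), with 1 point for each library (circle control, square Rg3, triangle TAM) and genes in pathway order. ENO1, GAPDH and ALDOA lie highest, and HK2 lies near 7 in every library.

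Each treated library was then compared with control to ask which steps of the pathway differed. Libraries were scaled by the trimmed mean of M-values (TMM), and a gene was counted as higher or lower when its fold was over 1.5 or under 0.67, that is a log2 fold change above 0.58 or below -0.58. No p-value is given, since 1 library in each group leaves no spread between samples, and the intervals beside log2 fold changes cover counting error only.

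With Rg3, 8 of the 10 genes lay below control and 3 of them, GPI, PFKP and ENO1, were past the limit, while none was past it upwards. Of all 16487 genes compared, 19.5% were lower and 25.0% were higher by the same rule, so 3 of 10 is to be read against 19.5%. The median log2 fold change of the 10 was -0.43, against 0.04 over all genes. LDHA lay above control and PGK1 level with it. Division by library totals brought the count to 0, as did removal of the GC and length trend, after which the median was -0.18.

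With TAM, all 10 genes lay above control and 2 of them, ALDOA and TPI1, were past the limit. The background here was 17.4% higher and 23.8% lower of 16079 genes. The median of the 10 was 0.47, against -0.02 over all genes. With library totals, which lower every TAM value by 0.21 on the log2 scale, ALDOA alone was past the limit, and SLC2A1 at -0.10 and HK2 at -0.05 lay below control. After removal of the trend 2 genes were past the limit again, but these were PGK1 and LDHA in place of ALDOA and TPI1, and the median was 0.26.

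**Figure D2:**
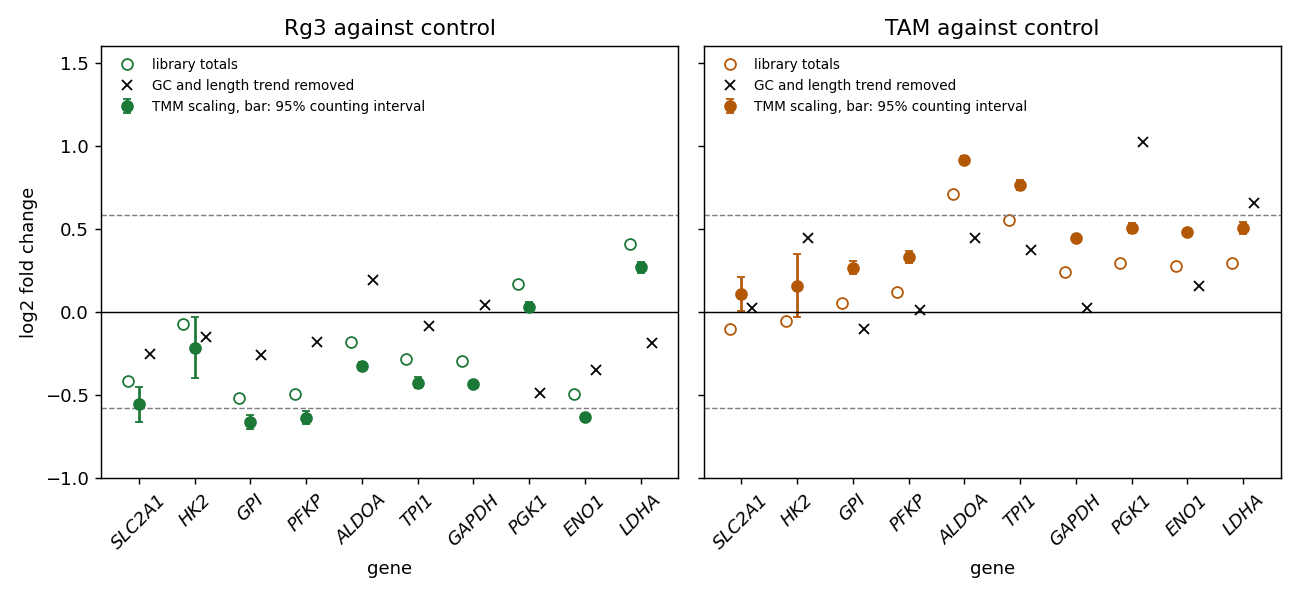
Log2 fold change of each gene against control for Rg3 (left) and TAM (right). Filled points are TMM-scaled with 95% counting intervals, open points use library totals, crosses have the GC and length trend removed, and dashed lines mark folds of 1.5 and 0.67. GPI, PFKP and ENO1 pass the lower line with Rg3 under TMM scaling and under neither other setting.

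Uptake and trapping of glucose stayed inside the limits. SLC2A1 (chr1:42925375-42959176, minus strand, GRCh38) had 1653 counts in control, 1410 in Rg3 and 1544 in TAM. Its log2 fold change was -0.56 with Rg3 (-0.66 to -0.45), just inside the limit, and 0.11 with TAM (0.01 to 0.21). With the trend removed these were -0.25 and 0.03. HK2 (chr2:74833981-74893359, plus strand) was the least counted member, with 469, 507 and 453 counts. The log2 fold changes of HK2 were -0.21 with Rg3 (-0.40 to -0.03) and 0.16 with TAM (-0.03 to 0.35), so the interval of the TAM value spans 0. After trend removal HK2 was at -0.15 and at 0.44, the latter outside that interval. HK1, the hexokinase made in most tissues, had 2851, 2984 and 2796 counts, and HK2 held 14.1%, 14.5% and 13.9% of the reads of both, with overlapping intervals in the 3 libraries.

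The preparatory steps held 2 of the 3 genes counted as lower with Rg3. GPI (chr19:34365196-34400328, plus strand), which turns glucose phosphate into fructose phosphate, had 10427, 8280 and 10860 counts, a log2 fold change of -0.66 with Rg3 (-0.70 to -0.62) and of 0.27 with TAM (0.23 to 0.30). PFKP (chr10:3067520-3136802, plus strand), the platelet-type phosphofructokinase, had 12601, 10168 and 13724 counts, with -0.64 (-0.67 to -0.60) for Rg3 and 0.33 (0.29 to 0.36) for TAM. After removal of the trend, GPI was at -0.26 and -0.10 and PFKP at -0.18 and 0.01, all inside the limits. PFKP supplied 79.9%, 79.8% and 80.5% of the phosphofructokinase reads, and the share held by the muscle type PFKM was 9.72% in control (9.27 to 10.2) and 11.4% in Rg3 (10.9 to 12.0). These shares still carry the GC and length trend. Without it the log2 fold changes with Rg3 were -0.35 for PFKM, -0.18 for PFKP and -0.26 for PFKL, also of this set.

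ALDOA (chr16:30064497-30070411, plus strand), which splits the fructose phosphate, had the largest scaled fold change of the 10 with TAM, while PGK1 had the largest with the trend removed. Its counts were 33945, 34028 and 55530, which gave a log2 fold change of 0.92 with TAM (0.90 to 0.94), or 1.89-fold, and of -0.32 with Rg3 (-0.34 to -0.30). Without the trend the values were 0.45 with TAM, inside the limit, and 0.19 with Rg3, on the other side of 0. TPI1 (chr12:6867531-6870828, plus strand) interconverts the triose phosphates that ALDOA makes and had 14765, 13796 and 21688 counts. With TAM its log2 fold change was 0.76 (0.73 to 0.79), or 1.69-fold, and 0.37 after removal of the trend. With Rg3 it was -0.43 (-0.46 to -0.39), and -0.09 without the trend.

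GAPDH and ENO1 supplied 59.0% of the reads of the 10 genes in control, 54.4% in Rg3 and 56.0% in TAM. GAPDH (chr12:6533927-6538371, plus strand), which couples oxidation of the triose to NADH, had 76308, 70810 and 90196 counts. Its log2 fold change was -0.44 with Rg3 (-0.45 to -0.42) and 0.45 with TAM (0.43 to 0.46), and with the trend removed it was 0.04 and 0.02. GAPDH thus lay where genes of its length and GC content, 58.8%, lay in both comparisons. ENO1 (chr1:8861000-8878686, minus strand) forms phosphoenolpyruvate and had 72852, 59015 and 88222 counts. The fold change of ENO1 was -0.63 with Rg3 (-0.65 to -0.62) and 0.48 with TAM (0.47 to 0.50) on the log2 scale, and -0.35 and 0.16 with the trend removed.

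By scaled fold change with Rg3, PGK1 and LDHA stood apart from the other 8. PGK1 (chrX:78104174-78129296, plus strand), the first ATP-yielding step, had 17215 counts in control, 22027 in Rg3 and 21163 in TAM. LDHA (chr11:18394388-18408425, plus strand) had 12401, 18740 and 15265. Both were level with or above control in each treated library. With Rg3 the log2 fold change was 0.03 for PGK1 (0.00 to 0.06) and 0.27 for LDHA (0.24 to 0.30). With TAM it was 0.50 for PGK1 (0.48 to 0.53) and 0.51 for LDHA (0.47 to 0.54). These are also the members of lowest GC content, 43.3% for PGK1 and 44.0% for LDHA, while the other 8 lie between 51.2% for HK2 and 60.1% for ALDOA.

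Across the 10 genes the Pearson correlation of the log2 fold change with GC content was -0.82 for Rg3 and 0.14 for TAM, a description of 10 points that share their libraries. By rank (Spearman) it was weaker for Rg3, at -0.53, and 0.09 for TAM. With the log of transcript length the Pearson correlation across the 10 was 0.34 for Rg3 and -0.66 for TAM. With Rg3, genes of 40% to 45% GC had a median of 0.58, so PGK1 and LDHA lay below that median, and below the lower quartile of 0.33 as well. Once the trend was removed they were at -0.49 and -0.19. ENO1 and SLC2A1 lay below the lower quartile of -0.44 of genes of 50% to 55% GC, and ALDOA lay above the upper quartile of -0.39 of genes of 60% to 65%. ENO1, SLC2A1 and ALDOA lie near a bin edge, however. All were inside the quartiles of the bin of 55% to 60%, -0.685 and -0.239. With TAM the opposite held. Low-GC genes lay below control, and removal of the trend raised PGK1 from 0.50 to 1.02 and LDHA from 0.51 to 0.66. The standard deviation of the 10 values fell from 0.31 to 0.19 for Rg3 and went from 0.25 to 0.35 for TAM. The source of the composition trend was not tested, and with 1 library in each group it cannot be told apart from an effect of the agent.

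**Figure D3:**
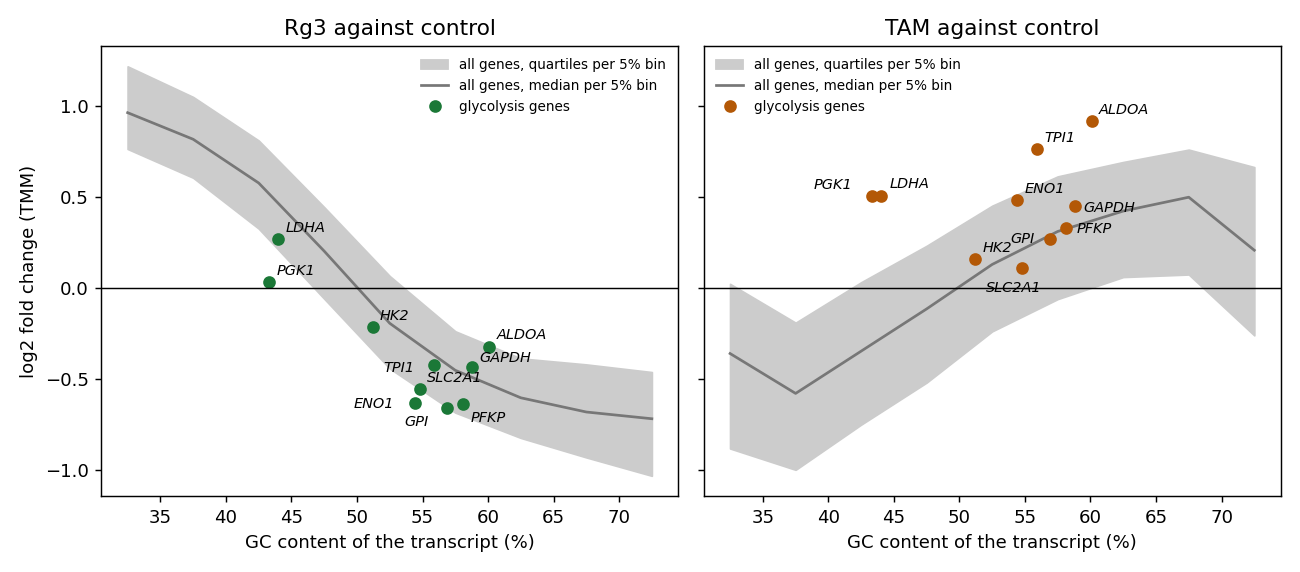
Log2 fold change (TMM) against the GC content of the transcript for Rg3 (left) and TAM (right). The line and the grey band are the median and the quartiles of all genes with at least 50 counts in bins of 5% GC, and points are the 10 glycolysis genes. With Rg3, PGK1 at 0.03 and ENO1 at -0.63 lie below the band, and with TAM PGK1 at 0.50, LDHA at 0.51, TPI1 at 0.76 and ALDOA at 0.92 lie above it. The band is drawn through the bin centres, so a gene can lie in or on it though outside the quartiles of its own bin.

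Set against each other, TAM was higher than Rg3 in all 10 genes and past the limit in 7, with HK2 at 0.37, PGK1 at 0.48 and LDHA at 0.24 inside it. The background was 30.0% higher and 35.4% lower of 16493 genes, and the median of the 10 was 0.90. The agents were given at different doses, and both folds rest on the same control library in the sections above. With library totals 4 were past the limit, LDHA lay below 0 at -0.11, and the median was 0.55. With the trend removed none of the 7 was past it and GAPDH was at -0.02, while HK2 at 0.62, PGK1 at 1.54 and LDHA at 0.86 were. The median was then 0.37, and over all genes 2616 were higher and 2656 lower of 14269.

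Reads counted on pseudogene rows differed widely between members. The table held 83 rows named as copies of a member, 39 of them with at least 10 counts, and none for SLC2A1, GPI or PFKP. All copies together had 18822, 18684 and 22428 counts, or 7.45%, 7.82% and 7.04% of the reads of the 10 genes. TPI1P1 had 5998, 5569 and 9143 counts, which was 40.6% of the TPI1 count in control (39.4 to 41.9), 40.4% in Rg3 (39.1 to 41.6) and 42.2% in TAM (41.1 to 43.2). Its log2 fold changes, -0.43 with Rg3 and 0.81 with TAM, were close to those of TPI1, -0.43 and 0.76. Of the stretches of 50 bases in TPI1, 30.1% recur in its named copies, and the 60 bases printed above differ at 2 positions only.

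For GAPDH, 64 copies were listed and 41 had reads, at 9.92%, 10.8% and 8.70% of the GAPDH count. GAPDHP1, the largest, had 4128, 4729 and 4269 counts and shared 96.2% of its bases with GAPDH. Its fold change was smaller than that of the gene in both comparisons, -0.13 against -0.44 with Rg3 and 0.26 against 0.45 with TAM on the log2 scale. LDHA differed from its main copy in direction. LDHAP4 had 1469, 1574 and 1289 counts, a log2 fold change of -0.23 with Rg3 (-0.33 to -0.12) beside 0.27 for LDHA, and 0.02 with TAM (-0.09 to 0.13) beside 0.51. GAPDHP65, with 1121, 1018 and 1231 counts, and ENO1P1, with 1156, 854 and 1179, moved on the same side of control as their genes. With the reads of all copies added to their genes, 3 genes were still lower with Rg3 and 2 higher with TAM. How the reads were divided between gene and copy was not tested.

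**Figure D4:**
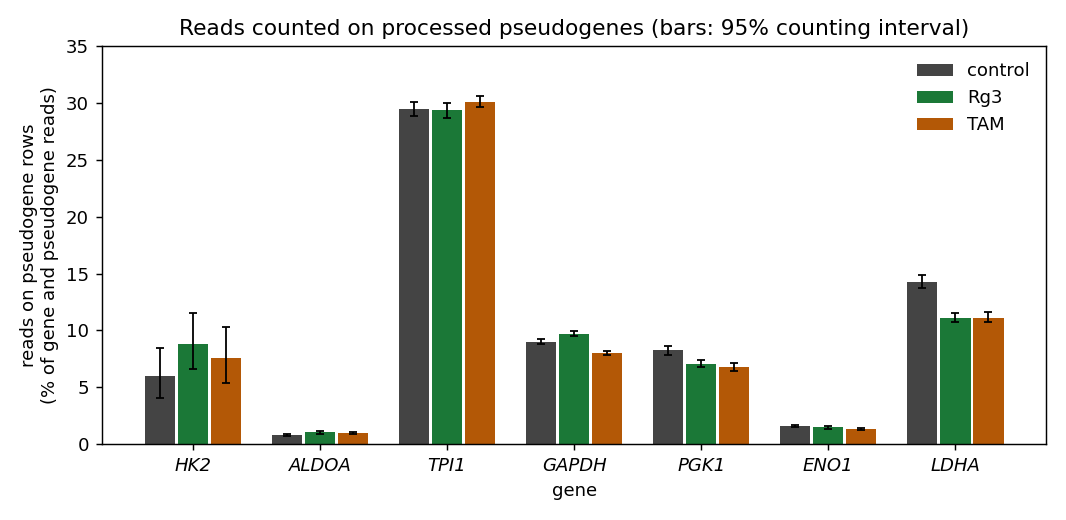
Reads counted on pseudogene rows as a percent of the reads of gene and pseudogenes together, for the 7 genes that have such rows, with 95% counting intervals. TPI1 stands at 29.5%, 29.4% and 30.1% in control, Rg3 and TAM, LDHA at 14.3%, 11.1% and 11.1%, and ALDOA and ENO1 below 2%.

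Overlapping genes are the other limit on these counts. ALDOA shares 81.6% of its stretches of 50 bases with AC093512.2, a transcript on the same strand that spans the gene, and GAPDH shares 18.0% with AC006064.4 on the opposite strand. Neither has a row in the table, and whether counting used the strand is not given in the sources used here. Isozymes described below overlap other genes too. LDHB shares 33.4% of its exon bases with AC010197.2 on the same strand. On the opposite strand, ALDOC shares 10.1% with AC005726.4 and ENO3 2.59% with PFN1. The part of these overlaps in the counts was not tested.

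The shares of several isozymes in the reads of a step differed between libraries by more than counting error. LDHB, the heart-type lactate dehydrogenase subunit, had 3785, 8535 and 4241 counts, so that LDHA held 76.6% of LDHA and LDHB reads in control (76.0 to 77.3), 68.7% in Rg3 (68.2 to 69.3) and 78.3% in TAM (77.7 to 78.8). ALDOC, the brain aldolase, had 153, 435 and 386 counts and was higher than control in both treated libraries, with log2 fold changes of 1.18 (0.91 to 1.46) and 1.54 (1.27 to 1.82), yet it held at most 1.26% of the aldolase reads. After trend removal ALDOC was at 1.58 and 1.17. ENO3, the muscle enolase, went in opposite directions, with 225, 79 and 703 counts, log2 fold changes of -1.84 with Rg3 (-2.23 to -1.46) and 1.85 with TAM (1.63 to 2.07), and -1.48 and 1.46 without the trend. The tissue-restricted isozymes PGAM2, PKLR and GAPDHS were at 0 in every library. SLC2A3, a high-affinity glucose transporter, had 41, 70 and 29 counts, or 2.42%, 4.73% and 1.84% of the reads it shares with SLC2A1.

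**Figure D5:**
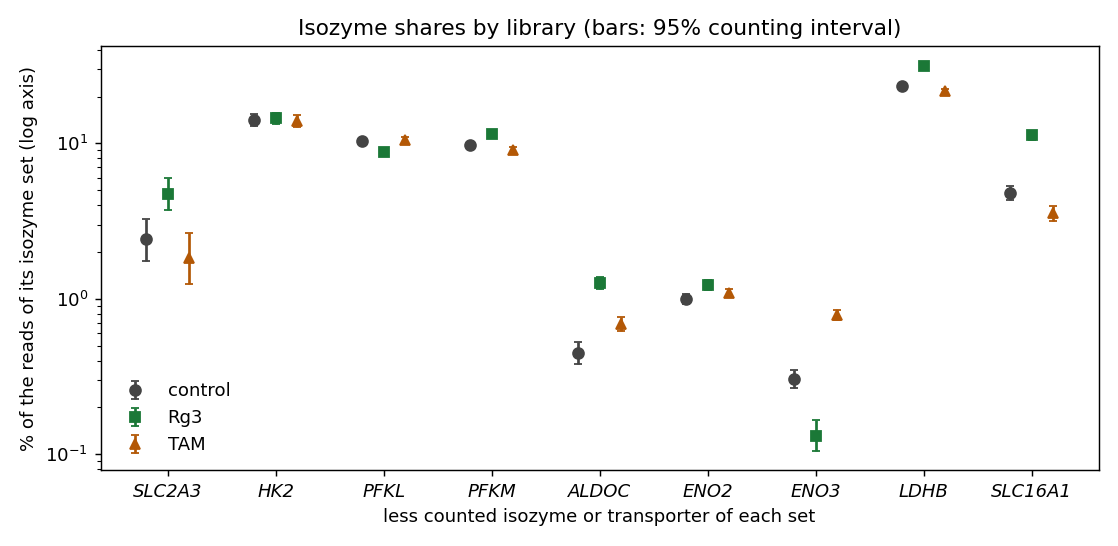
Share of the reads of its isozyme set held by each less counted isozyme or transporter (log axis), with 95% counting intervals, in control (circle), Rg3 (square) and TAM (triangle). SLC16A1 reaches 11.3% of SLC16A1 and SLC16A3 reads in Rg3, and ENO3 runs from 0.132% in Rg3 to 0.782% in TAM. These shares still carry the GC and length trend. SLC16A1 has 41.7% GC and SLC16A3 62.7%, and without the trend their log2 fold changes with Rg3 were 0.14 and 0.06.

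The counts for related gene lists below are read against the same shares of all genes, 25.0% higher and 19.5% lower with Rg3, and 17.4% and 23.8% with TAM. With the trend removed, 1154 genes were higher and 1495 lower of 14279 with Rg3, and 1697 and 2265 of 14019 with TAM. Among 15 further glycolysis genes compared, 4 were higher and 3 lower with Rg3, and 4 were higher and 1 lower with TAM. PKM, the pyruvate kinase that forms pyruvate after ENO1, had 51981, 40676 and 94185 counts. Its log2 fold change was 1.06 with TAM (1.05 to 1.08), larger than that of any of the 10 genes, and -0.68 with Rg3 (-0.70 to -0.66). Without the trend PKM was at 0.74 with TAM, below PGK1 at 1.02, and at -0.21 with Rg3. PFKFB2 and PFKFB4, which set the level of the activator of phosphofructokinase, differed. PFKFB2 had 144, 520 and 72 counts, or log2 fold changes of 1.53 and -0.79, and PFKFB4 had 639, 1002 and 1217, or 0.32 and 1.14. Also higher with Rg3 were LDHB at 0.85 and the lactate transporter SLC16A1 at 0.77, and lower were PFKL at -0.88 and BSG, the chaperone of lactate transporters, at -0.65. After trend removal 3 genes of the list were higher with Rg3, PFKFB2 at 1.04, ALDOC at 1.58 and PFKFB4 at 0.73, and 0 were lower. LDHB at 0.42, SLC16A1 at 0.14, PFKL at -0.26 and BSG at -0.06 were then inside the limits, as was PFKFB2 with TAM, at -0.11. ENO2, the neuronal enolase, was the other gene higher with TAM, at 0.62, and at 0.42 without the trend.

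Of 14 genes that set the fate of pyruvate, 7 were higher and 2 lower with Rg3. ME1, which makes pyruvate from malate, had 90, 411 and 87 counts and a log2 fold change of 1.86 (1.53 to 2.21). MPC1, a subunit of the mitochondrial pyruvate carrier, was at 1.26, PDK3, an inhibitor kinase of pyruvate dehydrogenase, at 1.15, and DLD, a subunit of that dehydrogenase, at 1.02. PDK2 at -0.86 and PC, pyruvate carboxylase, at -0.66 were lower. With the trend removed 3 were higher and 0 lower, ME1 at 1.11, MPC1 at 0.86 and PDK3 at 0.71, and DLD was at 0.25, PDK2 at -0.33 and PC at -0.07. With TAM 3 were higher and 4 lower, among them PC at 0.74, MPC2 at 0.63, MPC1 at 0.61, DLD at -0.74 and DLAT at -0.62. The balance turned with the trend removed, to 4 higher and 1 lower, with PC at 0.51, DLD at -0.24 and DLAT at -0.15 inside the limits.

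Of the regulators known for this pathway, HIF1A and TXNIP were among those past the limits and MYC was not. HIF1A, the oxygen-regulated subunit of HIF-1, had 256 counts in control, 744 in Rg3 and 119 in TAM, log2 fold changes of 1.21 (1.01 to 1.42) and -0.90 (-1.23 to -0.58). After trend removal they were 0.44 and -0.37, inside the limits. EPAS1, another listed regulator, had 829, 899 and 1098 counts and went the other way from HIF1A with TAM. It was at -0.21 with Rg3 and 0.61 with TAM, and at -0.05 and 0.78 without the trend, so it stayed past the limit with TAM. MYC had 1068, 1162 and 1007 counts and stayed inside the limits at -0.21 and 0.12. TXNIP, which restrains glucose uptake, had 100, 80 and 18 counts, at -0.65 with Rg3 (-1.09 to -0.21) and -2.27 with TAM (-3.08 to -1.53). Without the trend TXNIP was at -1.12 with Rg3 and -2.03 with TAM. TIGAR, which lowers flux through phosphofructokinase, had 100, 252 and 65 counts, at 1.01 and -0.42. No transcript was matched to its row, so TIGAR has no value without the trend. In all, 6 of 12 regulators were higher and 1 lower with Rg3, and 2 of 10 were higher and 4 lower with TAM. With the trend removed these counts were 2 and 1 of 11 with Rg3 and 1 and 1 of 9 with TAM. The 2 with Rg3 had few reads. They were ARRDC4, with 5 and 21 counts in control and Rg3, and PPARGC1A, with 8 and 28.

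Other genes known to respond to low oxygen, 11 in number, did not move as a block. With Rg3 2 were higher, P4HA1 at 1.11 and KDM3A at 0.94, and 2 lower, ADM at -0.92 and CA9 at -1.54. Without the trend P4HA1 at 0.44, KDM3A at 0.54 and ADM at -0.45 were inside the limits. With Rg3 1 gene was then higher, ANKRD37 at 0.60, and 1 lower, CA9 at -1.02. Both had few reads, 30 and 46 counts in control and Rg3 for ANKRD37 and 37 and 16 for CA9. With TAM 7 of the 11 lay above control and 4 below, and 5 were higher by the limit and none lower. With the trend removed 3 were higher, EGLN3, ANKRD37 and DDIT4. EGLN3 had 21 and 51 counts in control and TAM, at 1.49, and at 1.59 without the trend. ANKRD37 had 30 and 66, at 1.34 and 0.97. DDIT4, an inhibitor of mTOR signalling, had 1144, 994 and 2468 counts, a log2 fold change of 1.32 with TAM (1.21 to 1.42) and 0.89 without the trend. NDRG1 was at 0.71 and VEGFA at 0.64, and at 0.53 and 0.28 without the trend, inside the limit. Their medians were 0.29 with Rg3 and 0.17 with TAM.

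GAPDH is widely used as a reference in PCR and blots. Its ratio to 12 other reference genes was therefore taken within each library, where scaling cancels but the GC and length trend does not. The log2 change of this ratio ran from -1.82 to 0.44 with Rg3, with 3 of 12 above 0, and from -0.43 to 0.79 with TAM, with 9 above 0. Against ACTB the GAPDH ratio was 0.907 in control and 1.23 in both treated libraries, and against PPIA it was 6.71, 4.39 and 6.60. The references themselves differed, with ACTB at 84159, 57505 and 73488 counts and PPIA at 11379, 16130 and 13660. With Rg3 3 of the 12 references were past the limit upwards and 2 downwards, and with TAM 1 upwards. ALDOA was the only one of the 10 genes above all 12 references with TAM, with log2 changes of 0.04 to 1.26.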

How the data were processed

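PANC-1 total RNA was sequenced on the Ion Proton, with 1 library for each of control, Rg3 and TAM, grouped by the agent in the labels. The authors checked the reads with FAST-QC, aligned them with TopHat and deposited the counts of reads, not normalized, by gene symbol. GRCh38 is named in the submitters' processing notes. The counting tool, annotation and use of strand are not given in the sources used here. The table came from 1 study of cultured cells, and 0 columns of values were left unmapped.

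Counts were scaled with TMM in edgeR 4.0.16 (R 4.3.3), with factors of 1.02, 1.12 and 0.879. A gene was compared if either of the libraries held at least 10 of its reads, counts under 3 were raised to 3, and a fold over 1.5 or under 0.67, the limits in the methods of the study, was counted as a difference. The study's Limma test needs replicates and could not be fitted. Intervals are exact 95% binomial intervals. The trend on GC content and log length was a loess fit (span 0.3) to genes with at least 50 counts, with 1 GENCODE 29 transcript a gene, known for 86.6% of genes compared for Rg3 and 87.2% for TAM. Member coordinates are those of that transcript. Alternatives were library totals, DESeq2 1.42.0 size factors, filters of 1 and 50 counts, a 2-fold limit, the fold with a binomial test or edgeR's exact test at an assumed variation of 0.2 or 0.4, trend removal and addition of pseudogene reads. The steps were tested on simulated libraries for Rg3 against control. There 99% of 200 genes changed 2-fold were recovered, and 1139 of 15997 unchanged genes passed the limit, but 0 of 2235 with at least 1000 counts. The simulated counts held counting error only, with no variation between cultures and no GC trend in these calls. They therefore cannot show how often real libraries pass the limit for those reasons.

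The members and all gene lists were chosen with earlier results of these data known. Named were all 10 members, up to 4 genes in each direction from each other list with at least 100 counts in either library and past the limit, as examples, the 5 pseudogenes with most counts, and HIF1A, MYC, TXNIP, ACTB and PPIA. HK1, PFKM, SLC2A3 and the isozymes at 0 were named for the isozyme sets, and CD68 after its values were seen. CA9, ANKRD37, EGLN3, ARRDC4, PPARGC1A, SUCLG2 and SDHC were named because they were past the limits with the trend removed. Some listed isozymes are not reported here.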

Additional observations from a re-analysis of the deposited data

How the results depend on the processing

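No paired analysis was possible because each group holds 1 library, and no leave-one-out value exists for the same reason. The count of glycolysis genes lower with Rg3, 3 under TMM scaling, was 0 with library totals, a 2-fold limit, edgeR's exact test at an assumed variation of 0.2 or 0.4, and either removal of the trend. The count higher with TAM, 2 under TMM, was 1 with library totals and 0 with a 2-fold limit or either assumed variation. DESeq2 size factors, filters of 1 or 50 counts, the binomial test and added pseudogene reads left these counts at 3 and 2. Taking GC content and length as medians over the basic transcripts was a setting chosen after seeing the data. It gave PGK1 0.99 with TAM and the same member counts as the other trend removal, 0 lower with Rg3 and 2 higher with TAM. Single values did depend on the transcript. With TAM, GPI went from -0.10 to 0.17, SLC2A1 from 0.03 to -0.16 and HK2 from 0.44 to 0.56.

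For all genes, 4122 were higher and 3223 lower with Rg3, against 5180 and 2321 with library totals. A 2-fold limit gave 1470 and 1149, assumed variations of 0.2 and 0.4 gave 64 and 92, then 0 and 1, and removal of the trend 1154 and 1495 (1149 and 1493 with medians over transcripts). A filter of 50 counts left 2139 lower. For TAM, 2799 were higher and 3823 lower, against 1576 and 5259 with library totals. The same settings gave 862 and 1824, then 109 and 365, then 0 and 1, and 1697 and 2265 (1671 and 2265). A filter of 50 counts left 2529 lower. The smaller counts under a stricter limit or filter follow from its construction, and otherwise the cause was not tested. TMM differs from library totals by -0.14 on the log2 scale for Rg3 and 0.21 for TAM. Depth limits HK2 with TAM, whose interval spans 0, and SLC2A1 with Rg3, whose interval crosses the limit. The interval of PGK1 with Rg3 also reaches 0, but it is narrow and its value, 0.03, is itself near 0. With 1 library in each group no value shows how far cultures vary.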

Other observations

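Genes that take carbon after pyruvate or off the pathway were also compared. Of 16 genes of the citric acid cycle, 2 were higher and 2 lower with Rg3, SUCLA2 at 1.05 and IDH3A at 0.62, IDH3G at -0.75 and SDHA at -0.64, all as log2 fold changes. All 4 were inside the limits with the GC and length trend removed, at 0.32, 0.13, -0.23 and -0.33, and SUCLG2 at -0.73 and SDHC at -0.60 were then lower. With TAM the only one past the limit was IDH3B at 0.79, and without the trend it was at 0.44 and SDHC, at 1.36, was higher. In the pentose phosphate pathway, which draws on glucose phosphate to make NADPH, PGD had 2280 counts in control, 5275 in Rg3 and 2583 in TAM. Its log2 fold change with Rg3 was 0.88 (0.81 to 0.96), and 1.07 with the trend removed. RPE at 0.68 was also higher, and PGLS at -0.69 and TALDO1 at -0.67 were lower, of 7 genes, but these 3 were inside the limits without the trend, at -0.12, -0.07 and -0.30. With TAM PGLS alone was past the limit, at 0.67, and at 0.11 without the trend.

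Among 12 genes of serine synthesis, glycogen, hexosamine and glycerol phosphate branches, 4 were higher and 2 lower with Rg3, and 1 was higher and 3 lower with TAM. With the trend removed the counts were 0 and 0 with Rg3, and 1 and 1 with TAM. The shares of all genes past the limits were 25.0% and 19.5% with Rg3, and 17.4% and 23.8% with TAM. PHGDH, the entry to serine synthesis, had 2158, 2882 and 3862 counts, a log2 fold change of 1.05 with TAM (0.97 to 1.12) and 0.71 without the trend. PSAT1, the next enzyme, had 558, 1488 and 605 counts and was at 1.09 with Rg3 and 0.52 without the trend. GPD2, of the glycerol phosphate shuttle, had 223, 474 and 83 counts, at 0.76 with Rg3 and -1.22 with TAM, and at 0.06 and -0.50 without the trend.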
